A study of Mus musculus with 6 samples.

Results

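The heat shock proteins and DnaJ chaperones of tumour-infiltrating mouse CD8 T cells were examined gene by gene after treatment with IL-10/Fc or PBS. Members were all protein-coding genes of the deposited count table whose symbol begins with Hsp or with Dnaja, Dnajb or Dnajc followed by a number. The name rule took 71 rows, of which 9 were not protein coding, leaving 62 members among 15898 listed genes. By role they were divided into 9 stress-inducible cytosolic members, 11 constitutive cytosolic members, 13 members of the endoplasmic reticulum (ER), 8 mitochondrial members, 11 DnaJC proteins with specialised tasks and 10 others. Hspb8, Hspa1l and Dnajc6 had been assigned to these groups by name but were not among the listed genes.

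HSP70 proteins bind exposed hydrophobic stretches of unfolded clients and release them when ATP is exchanged. DnaJ proteins (J proteins) hand clients to HSP70 and switch on its ATPase, HSP110 proteins reload it with ATP, and HSP90 takes over clients such as kinases and receptors late in folding. A separate set serves the ER, where secreted and membrane proteins fold, and another the mitochondrial matrix, where the HSP60 barrel and its HSP10 lid enclose clients. Heat shock factor HSF1 drives the inducible cytosolic genes through heat shock elements, and the unfolded protein response drives many ER members. In activated T cells chaperones support rapid protein synthesis and secretion.

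The 6 libraries came from mice of strain C57BL/6 bearing B16F10 melanoma. All mice, PBS controls included, had received 4 Gy of total body irradiation, then naive Thy1.1+ PMEL T cells (of B6.Cg-Thy1a/Cy background with the T cell receptor transgene Tg(TcraTcrb)8Rest/J) and, 10 days after tumour inoculation, a further transfer of activated PMEL CD8 T cells marked Thy1.2+. Peritumoral injections of PBS (2 libraries) or of 20 µg IL-10/Fc, an interleukin-10 fusion protein (4 libraries), were given 4 times on alternate days from day 10, and tumours were taken on day 18. Each library was made from 500 sorted PD-1+TIM-3+ cells of the Thy1.1+ CD8 population, the terminally exhausted compartment, so the cells carried the transgenic receptor in a host that also held a transferred Thy1.2+ population. The labels give no ages and do not say that replicates came from separate mice, so p-values measure only the spread between these samples, which may be technical.

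Depth was 26738871 to 36941814 counts per library over the listed genes, and 3 counts corresponded to 0.0855 to 0.108 CPM. Levels below are CPM, counts relative to a library's total after scaling with TMM factors, given in the order PBS 1, PBS 2, then IL-10/Fc 1 to 4. Across genes within these libraries, the correlation of log2 expression was 0.912 for the PBS pair and 0.902 to 0.926 for pairs of treated libraries, against 0.895 to 0.909 for a control with a treated library. All 7 markers of the sorted cells were detected in every library, and their summed level was 5208 and 6814 CPM in PBS against 8141 to 9263 CPM in IL-10/Fc. They did not all move together. Cd8a, Cd8b1, Cd3e, Cd3d and Thy1 were higher in every treated library, Pdcd1 (PD-1) was lower in each (1578 and 1286 CPM against 700 to 1112 CPM) and Havcr2 (TIM-3) overlapped. Of other cell types, 12 of 12 macrophage markers summed to 280 and 420 CPM against 160 to 725 CPM, with Mrc1 at 0 in both PBS libraries, and Lyz2 and Apoe making up much of the PBS sums. Cd68 (47.3 and 38.7 CPM against 60.5 to 106 CPM) and Ms4a7 (0.51 and 2.58 CPM against 8.04 to 28.6 CPM) were higher in every treated library, as was Mrc1. The rest of this list overlapped, with lower treated means for Lyz2 (171 against 134 CPM) and Apoe (60.3 against 23.6 CPM). The 7 of 8 dendritic cell and MHC class II markers that were listed summed to 228 and 310 CPM against 172 to 1915 CPM. Of these, Zbtb46 was lower in every treated library (61 and 23.3 CPM against 4.76 to 21.7 CPM), and the rest overlapped. Fibroblast and endothelial markers (2 of 5 listed) summed to 20.4 and 16.6 CPM against 6.59 to 9.87 CPM, without overlap, nearly all of it Pecam1. Melanoma markers (4 of 6 listed) summed to at most 9.04 CPM and B cell markers (only Cd79b of 4, at 0 in PBS 1) to at most 6.56 CPM. The part of these cells in the chaperone values was not tested.

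The members together held 0.808% of scaled counts in PBS and 0.826% in IL-10/Fc. Their summed level was 7820 and 8334 CPM in PBS and 8701, 8075, 8306 and 7949 CPM in IL-10/Fc, so that the groups overlapped. By role, the inducible members summed to 1310 and 1256 CPM against 1280 to 1435 CPM. Constitutive members summed to 2970 and 2615 CPM against 2348 to 2713 CPM, and mitochondrial members to 1185 and 1005 CPM against 1007 to 1314 CPM. No role set apart the groups except the small class of other members, at 122 and 144 CPM against 97.3 to 118 CPM. Within that class, Dnajc12 was the 1 tested member without overlap, at 43.6 and 62.2 CPM against 17.2 to 35.1 CPM. ER members summed to 1667 CPM in PBS 1 and 2547 CPM in PBS 2, and the 4 IL-10/Fc libraries lay at 2228 to 2594 CPM.

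**Figure D1:**
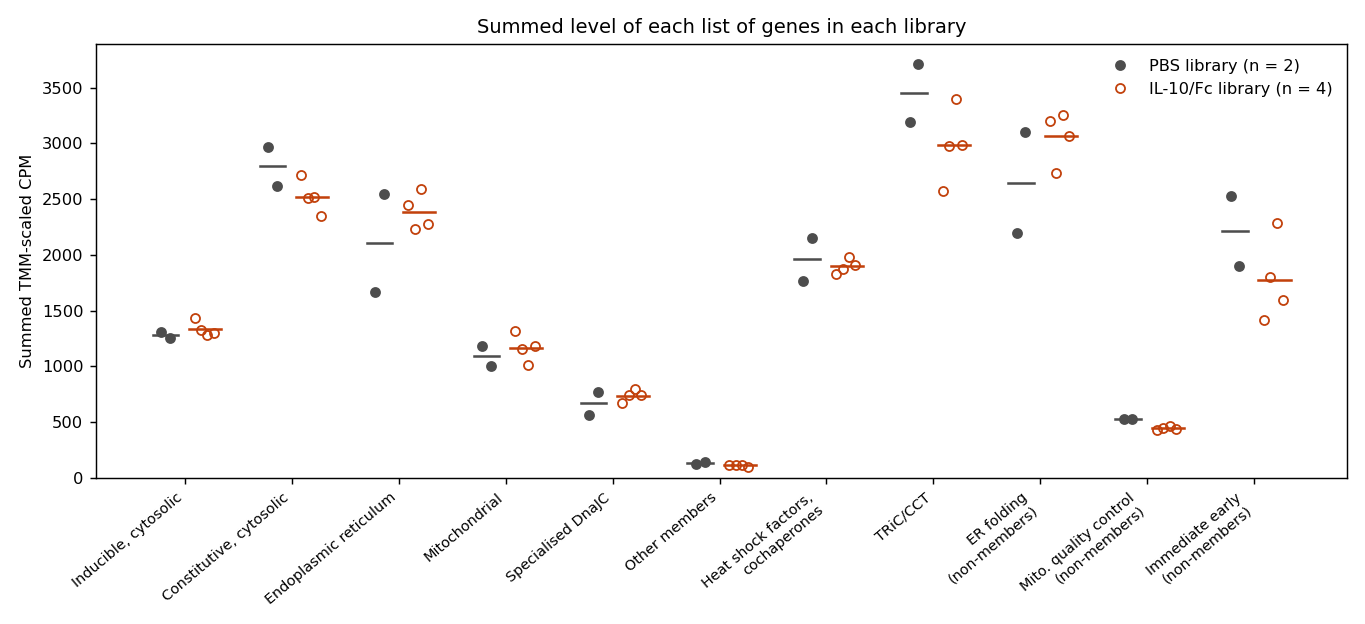
Summed TMM-scaled CPM (vertical axis) of each role of members and of 5 lists of partner genes (horizontal axis), 1 point per library, with bars at the group means. The member groups overlap between treatments except for the other members, and the ER sum of PBS 1 (1667 CPM) lies below all other libraries.

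Per kilobase of exon, the most abundant members were the constitutive Hsp90ab1 (298 CPM per kilobase, mean of the 6 libraries), Hspa8 (269), the ER chaperone Hspa5 (253), the inducible Hsp90aa1 (150) and the ER HSP90 Hsp90b1 (128). Next came the histone chaperone Dnajc9 (94), the HSP10 lid Hspe1 (91.5), the mitochondrial J protein Dnajc15 (89.8), the splicing-associated Dnajc8 (86.8) and Dnajb1 (77). Hspa8, Hspa5 and Hsp90ab1 alone took 35.7% to 41.7% of the members' scaled counts in every library. At the other end stood Dnajb5 (0.0457), and the classical heat-inducible genes Hspa1a (0.867) and Hspa1b (0.93) were near the bottom of the order. In total 35 members reached a mean of 20 CPM, 10 lay from 5 to under 20 CPM and 17 under 5 CPM. Both groups thus had high counts of constitutive chaperones and low counts of Hspa1a and Hspa1b. How reads shared by the near-identical Hspa1a and Hspa1b were counted is not known, so low counts may not mean few transcripts.

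**Figure D2:**
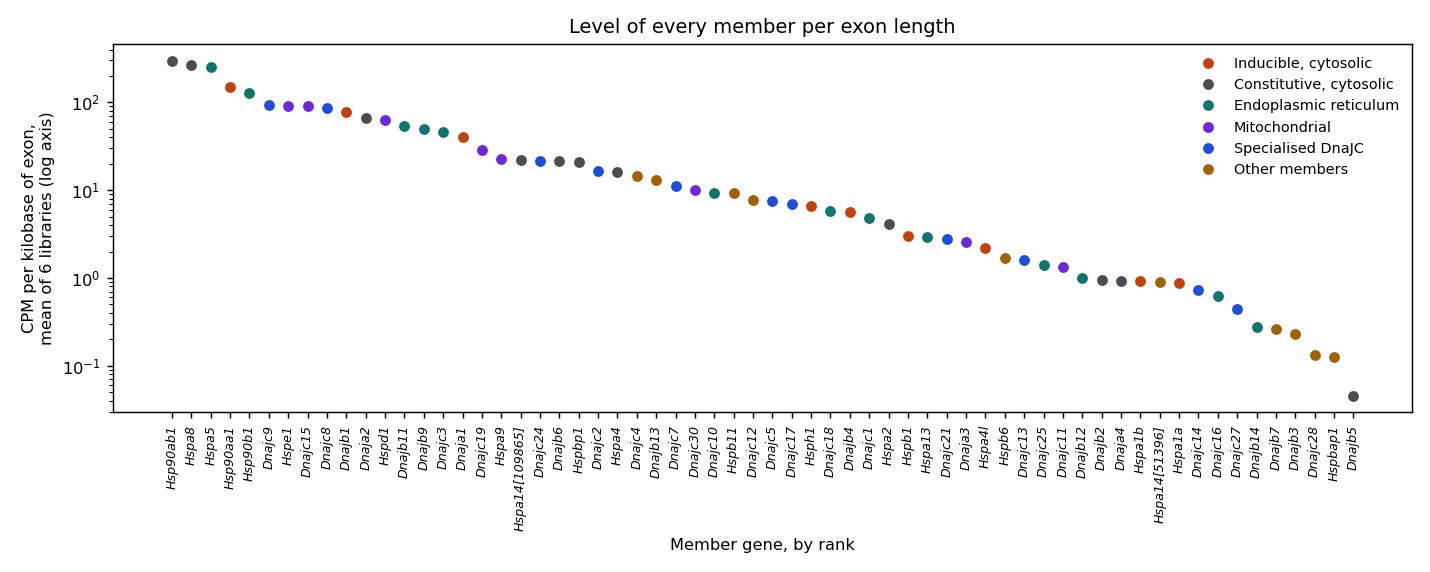
Mean level of each of the 62 members over the 6 libraries in CPM per kilobase of exon (vertical axis, log scale), ordered by rank (horizontal axis) and coloured by role. Hsp90ab1 leads at 298 and Dnajb5 is last at 0.0457.

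Between IL-10/Fc and PBS, 61 of the 62 members could be tested with edgeR's quasi-likelihood test, and none passed an adjusted p of 0.05 (Benjamini-Hochberg over 15477 genes), against a background of 0.00646% of all genes tested. At an unadjusted p under 0.05, 2 members were higher (background 7.2%) and 6 lower (background 5.52%). Groups did not overlap for 8 members that were higher (background 12.1%) and 8 that were lower (background 11.5%). With library size alone as the scaling, which moved the median log2 fold change of all genes from -0.01 to -0.18, this split became 1 higher (Dnajc13, background 7.24%) and 15 lower (background 19.8%), so that the groups of Hsp90aa1, Hsph1, Dnajb6, Dnajb11, Dnajc1, Dnajc3 and Dnajc10 then overlapped. Of the 61 members, 32 had a log2 fold change above 0 (background 49.3%), and their median was 0.07. The DESeq2 Wald test, the alternative method, called 3 members lower (background 1.58%) and none higher (background 3.46%, or 5.04% in either direction), namely Hspa2, Dnajb4 and Dnajc12. The counts of members without overlap lie near the background in both directions and are no result about the family.

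**Figure D3:**
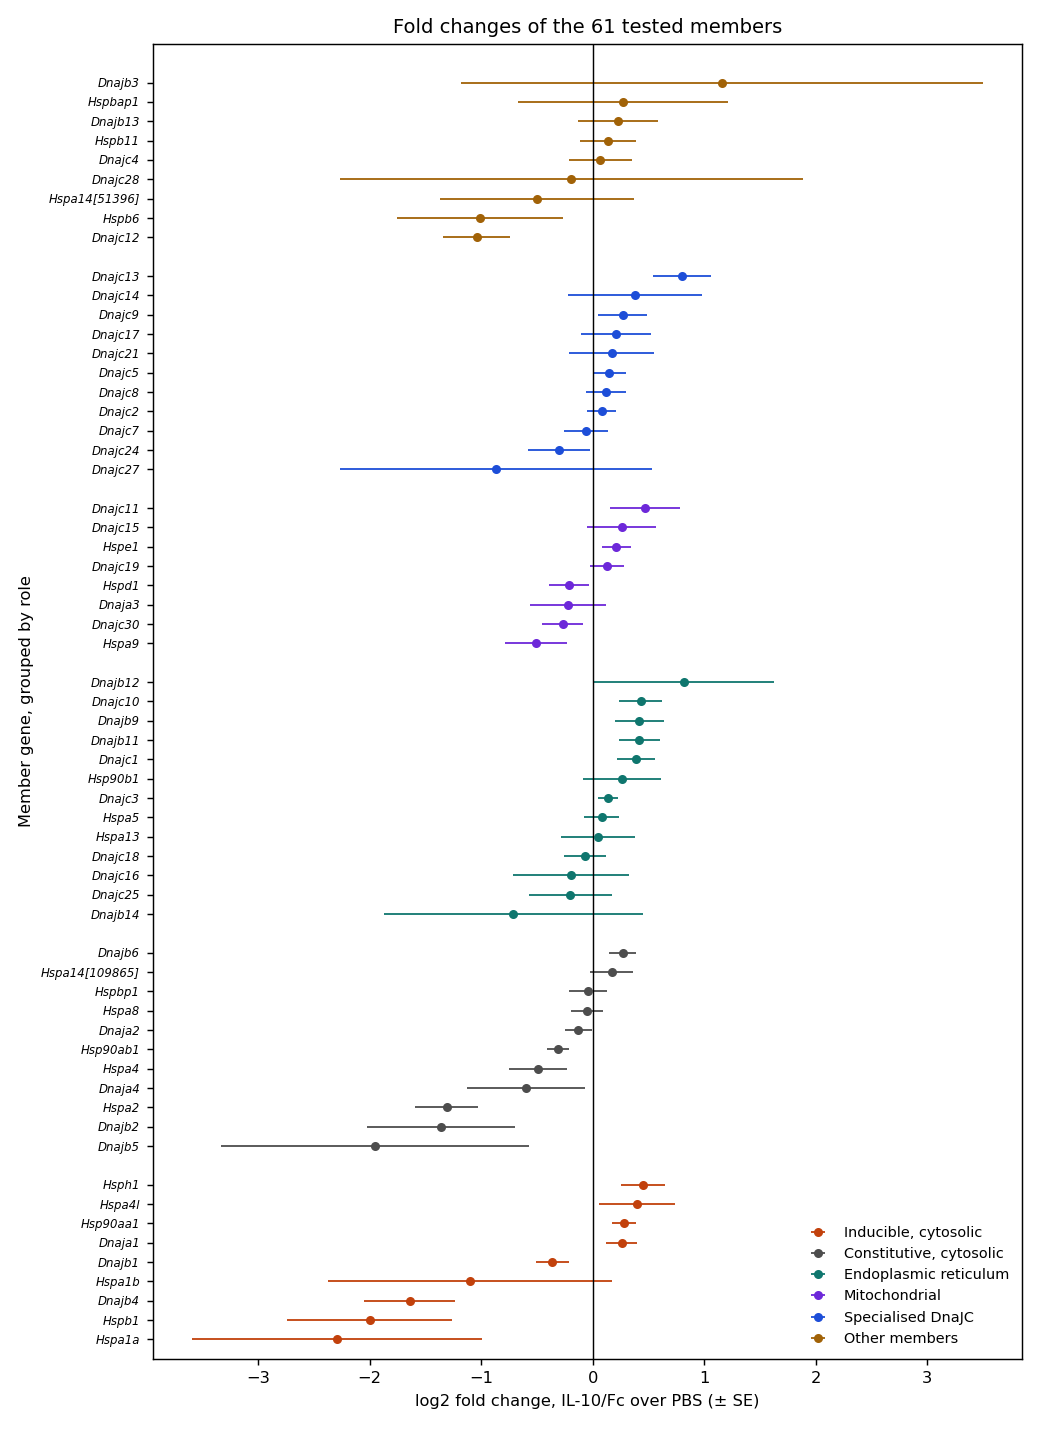
Log2 fold change of IL-10/Fc over PBS (horizontal axis, edgeR) with its standard error (bars) for the 61 tested members, grouped and coloured by role. Most ER members lie right of 0 and most constitutive members left of 0, and the largest shifts belong to low transcripts with wide errors.

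Spread between the PBS libraries was large for a number of members. Among the 35 members of at least 20 CPM, the ratio of the higher to the lower PBS library had a median of 1.31. The ratio of the highest to the lowest of the 4 IL-10/Fc libraries had a median of 1.3. Such a ratio tends to rise with the number of libraries, so these medians do not show equal spread. PBS 2 exceeded PBS 1 in 23 of the 35, including 656 against 256 CPM for Hsp90b1 and 165 against 80.6 CPM for Hspa9. Log2 fold changes of at least 1 in size occurred in 10 tested members, 9 of them lower, and 8 of the 10 had a mean under 20 CPM. In these bulk samples, fewer cells of a type and less RNA per cell cannot be told apart.

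The inducible cytosolic members did not move as a unit. Hsp90aa1 and the HSP110 gene Hsph1 were higher in every IL-10/Fc library, Dnajb4, Hspb1 and Hspa1a were lower in every one, and the list's median log2 fold change was -0.36, with 4 positive and 5 negative values. Without PBS 1 the median was 0.12, and the 20 CPM filter, which leaves out its low members, gave 0.25. Among its 9 genes, 1 was higher (background 7.2%) and 3 lower (background 5.52%) at an unadjusted p under 0.05. To show what these genes share, promoters from RefSeq (GRCm38.p6, 250 bases before to 50 after the start of transcription) were searched for the heat shock element written as GAANNTTC or TTCNNGAA, which reads the same on both strands and whose forms may overlap. Entries existed for 50 member symbols, with 65 promoters; Dnajc11, Dnajc12, Dnajc18, Dnajc2, Dnajc30, Dnajc5, Hsp90aa1, Hsp90ab1, Hspa13, Hspa8 and Hspa9 had none. The element occurred in 7 of 13 promoters of inducible members (53.8%, overlapping windows of Hsph1 counted separately), against 4946 of all 32851 promoters (15.1%). The inducible list was drawn up as genes driven by HSF1, so a high share was built into it. Shares were 33.3% for mitochondrial, 21.4% for constitutive, 9.09% for ER and specialised and 10% for other members. Inducible members with the element were Hspa1a, Hspa1b, Hsph1, Hspb1, Dnaja1 and Dnajb4. They include genes with higher and genes with lower values in IL-10/Fc. A match is a description of letters and not a measured binding site.

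The promoters of the near-identical Hspa1a and Hspa1b, of Hsph1 and of Dnajb4 are shown because these genes share the element and differ in direction. The Hspa1a window is chr17:34972107-34972406 on the minus strand, that of Hspa1b chr17:34959189-34959488 (minus), that of Hsph1 chr5:149636287-149636586 (minus) and that of Dnajb4 chr3:152193796-152194095 (minus, the downstream of its listed starts). Each is written 5′ to 3′ with heat shock elements in capitals.
Hspa1a: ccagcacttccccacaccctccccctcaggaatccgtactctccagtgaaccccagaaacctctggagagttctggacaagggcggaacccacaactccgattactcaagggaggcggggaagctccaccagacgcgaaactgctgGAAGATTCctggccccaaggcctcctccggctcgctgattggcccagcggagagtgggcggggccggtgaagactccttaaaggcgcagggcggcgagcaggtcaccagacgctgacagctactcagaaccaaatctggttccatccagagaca
Hspa1b: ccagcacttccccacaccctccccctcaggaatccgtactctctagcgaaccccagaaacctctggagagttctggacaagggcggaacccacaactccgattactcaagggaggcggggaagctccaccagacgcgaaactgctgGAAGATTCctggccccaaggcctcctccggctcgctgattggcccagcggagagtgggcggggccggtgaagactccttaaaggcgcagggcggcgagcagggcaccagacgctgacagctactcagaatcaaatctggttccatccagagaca
Hsph1: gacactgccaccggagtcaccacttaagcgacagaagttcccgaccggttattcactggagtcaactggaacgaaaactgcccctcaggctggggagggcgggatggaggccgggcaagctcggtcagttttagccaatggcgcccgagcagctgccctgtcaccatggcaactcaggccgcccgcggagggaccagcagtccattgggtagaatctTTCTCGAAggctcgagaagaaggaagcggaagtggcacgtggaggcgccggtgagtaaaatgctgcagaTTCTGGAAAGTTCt
Dnajb4: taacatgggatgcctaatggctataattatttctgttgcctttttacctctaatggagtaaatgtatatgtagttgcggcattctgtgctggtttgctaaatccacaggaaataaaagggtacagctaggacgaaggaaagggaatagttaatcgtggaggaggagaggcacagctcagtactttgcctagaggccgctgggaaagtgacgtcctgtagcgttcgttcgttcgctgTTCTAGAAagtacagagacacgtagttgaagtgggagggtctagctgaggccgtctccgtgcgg
The Hspa1a and Hspa1b windows are 98.7% identical and differ at 4 of 300 positions, C44T, T47C, T249G and C276T (Hspa1a base first, counted from 1 at the 5′ end of the window). Both hold a single element, 104 bases before the start. Hsph1 holds 3 matches, of which a pair overlaps just after the start.

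Hsp90aa1 encodes the stress-inducible cytosolic HSP90 (chr12:110690605-110702728, minus strand). Its level was 457 and 575 CPM in PBS and 623, 617, 646 and 612 CPM in IL-10/Fc. Every IL-10/Fc library lay above both PBS libraries, and the IL-10/Fc values were close together. The means were 516 ± 83.7 CPM (SD, n = 2) and 625 ± 15 CPM (SD, n = 4), a log2 fold change of 0.28 (SE 0.11, unadjusted p = 0.0463, adjusted p = 0.389, edgeR). Over the 14 alternative analyses its log2 fold change ranged from 0.11 to 0.45 and kept its sign.

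Hsph1, the inducible HSP110 that recharges HSP70, was at 44.2 and 32.5 CPM in PBS and at 62.9, 49.4, 49.5 and 47.2 CPM in IL-10/Fc. All 4 treated libraries were above both controls, with IL-10/Fc 1 apart from the other 3. The log2 fold change was 0.45 (SE 0.20, adjusted p = 0.42, edgeR). Dnaja1, a J partner of cytosolic HSP70, stood at 302 and 318 CPM in PBS and at 436, 379, 317 and 352 CPM in IL-10/Fc, where IL-10/Fc 3 lay between the PBS values (log2 fold change 0.26, adjusted p = 0.509, edgeR). Hspa4l, another HSP110 relative, ranged from 19.7 to 38.9 CPM over the treated libraries and enclosed both controls, at 23.0 and 19.8 CPM.

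Dnajb4, a J protein that works with HSP70 (chr3:152178511-152210302, minus), had the smallest p of the inducible list. It measured 133 and 50.2 CPM in PBS and 31.3, 21.5, 24.4 and 39.7 CPM in IL-10/Fc. Both controls were above every treated library, and PBS 1 was far above PBS 2. Its log2 fold change was -1.64 (SE 0.41), with an adjusted p of 0.231 in edgeR and 0.00343 in DESeq2. Over the alternatives the value ranged from -2.18 (without PBS 2) to -0.78 (without PBS 1) and was negative throughout.

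Hspb1 (HSP27), a small heat shock protein that holds unfolding proteins in soluble form, was at 8.32 and 4.08 CPM in PBS and at 0.503, 3.03, 0.865 and 1.80 CPM in IL-10/Fc. The groups did not overlap at these low levels, and the log2 fold change was -2.0 (SE 0.74, adjusted p = 0.357, edgeR), or -1.40 without PBS 1. Dnajb1, the main J partner of inducible HSP70, was at 328 and 251 CPM in PBS and at 257, 217, 203 and 225 CPM in IL-10/Fc. Only IL-10/Fc 1 reached into the control range, and the log2 fold change was -0.36 (SE 0.15, unadjusted p = 0.0483, adjusted p = 0.39, edgeR). Its 2 listed promoters held no heat shock element of the form searched.

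Hspa1a and Hspa1b, the heat-inducible HSP70 genes, lie side by side on chromosome 17 (34969190-34972156 and 34956436-34959238, both minus). Their longest open reading frames were 99.4% identical, so their reads may be split between them or left out by the counting. Single-gene values and their sum are thus uncertain. Hspa1a counts were 237 and 89 in the controls and 48, 76, 2 and 5 in the treated libraries. Hspa1b counts were 188 and 52 in the controls and 73, 124, 2 and 25 in the treated libraries. Summed over both genes, the level was 14.4 and 4.61 CPM in PBS and 4.06, 6.98, 0.144 and 0.856 CPM in IL-10/Fc. PBS 1 was the highest library, IL-10/Fc 3 and 4 were the lowest, and IL-10/Fc 2 exceeded PBS 2. The means of 9.53 ± 6.95 CPM (SD, n = 2) and 3.01 ± 3.15 CPM (SD, n = 4) differed by less than the spread in the controls. Separately, the log2 fold change was -2.29 (SE 1.30, adjusted p = 0.524) for Hspa1a and -1.10 (SE 1.27, adjusted p = 0.801) for Hspa1b in edgeR. Without PBS 1 these values were -1.38 and 0.15, and over the alternatives Hspa1a ranged from -3.33 to -1.23.

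**Figure D4:**
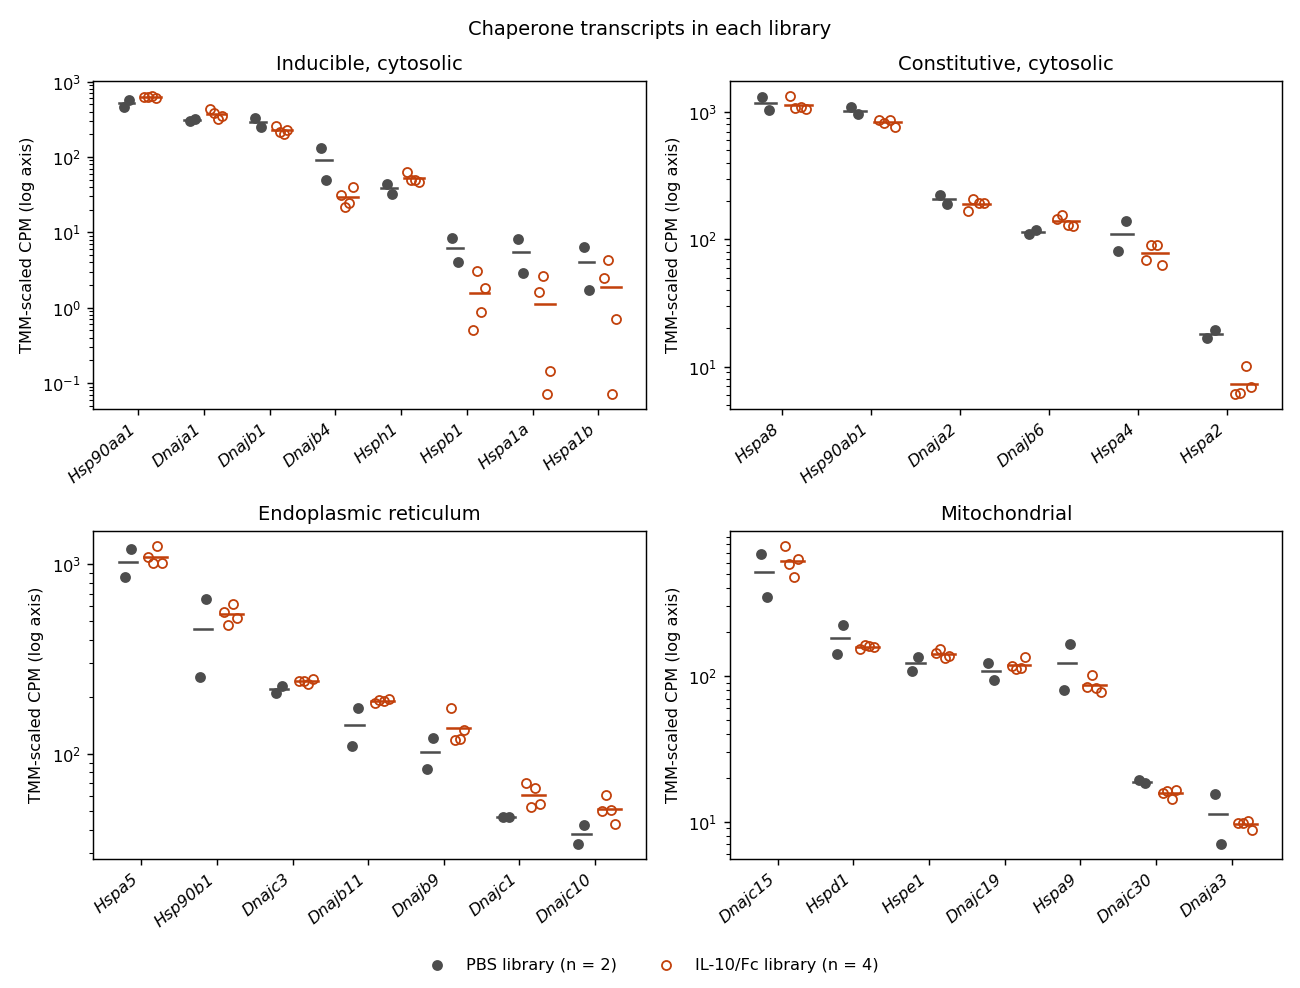
Level of selected members in each library (vertical axes, TMM-scaled CPM on a log scale), in 4 panels by role, with PBS libraries filled, IL-10/Fc libraries open and bars at group means. Hspa2 and Dnajb4 show both controls above all treated libraries, Hsp90aa1 both below, and Hsp90b1 and Hspa9 show wide gaps between the controls.

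Of the 11 constitutive cytosolic members, 9 had a negative and 2 a positive log2 fold change, with a median of -0.31, against -0.01 over all genes. At an unadjusted p under 0.05, 2 were lower (background 5.52%) and none higher. Without PBS 1 the list's median was -0.03.

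Hsp90ab1 encodes the constitutive cytosolic HSP90 (chr17:45567775-45573271, minus). It measured 1096 and 958 CPM in PBS and 863, 827, 865 and 761 CPM in IL-10/Fc, without overlap. The means were 1027 ± 97.8 CPM (SD, n = 2) and 829 ± 48.6 CPM (SD, n = 4), a log2 fold change of -0.31 (SE 0.10, unadjusted p = 0.0179, adjusted p = 0.298, edgeR; DESeq2 adjusted p = 0.129). The constitutive and the inducible cytosolic HSP90 genes thus lay on opposite sides of their controls. Their longest open reading frames were 75.3% identical.

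Hspa2 (chr12:76404176-76406934, plus), an HSP70 best known from male germ cells, was the member with the smallest p. Its level was 16.8 and 19.5 CPM in PBS and 6.10, 6.24, 10.1 and 6.95 CPM in IL-10/Fc. All treated libraries were well below both controls, which agreed closely with each other. The log2 fold change was -1.31 (SE 0.28), with an adjusted p of 0.193 in edgeR and 0.0056 in DESeq2. Among the alternatives it stayed between -1.55 and -1.20.

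Hspa8, the constitutive cytosolic HSP70 (HSC70), was at 1316 and 1046 CPM in PBS and at 1339, 1071, 1094 and 1066 CPM in IL-10/Fc. Its groups overlapped and the log2 fold change was -0.05 (SE 0.14, adjusted p = 0.942, edgeR), or 0.13 without PBS 1. Hspa4, the constitutive HSP110, stood at 80.3 and 139 CPM in PBS and at 69.1, 89.7, 90.5 and 63.1 CPM in IL-10/Fc, where PBS 2 was the highest library (log2 fold change -0.49, adjusted p = 0.501, edgeR, and -0.04 without PBS 2). Dnajb6, a J protein that holds back aggregation, was 1 of the 2 members with a positive value. It read 111 and 118 CPM in PBS and 144, 154, 129 and 127 CPM in IL-10/Fc, with every treated library higher (log2 fold change 0.27, SE 0.12, adjusted p = 0.418, edgeR). Dnajb2, a J protein with ubiquitin-binding motifs, was at 3.40 and 10.2 CPM against 1.68, 3.98, 1.19 and 3.71 CPM, and PBS 1 lay within the treated range (log2 fold change -1.36, and -0.36 without PBS 2).

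The remaining constitutive members held small or imprecise differences. Dnaja2, a J partner of HSC70, spanned 191 to 224 CPM in PBS and 166 to 206 CPM in IL-10/Fc. Hspbp1, a nucleotide exchange factor of HSP70, read 40.1 and 39.7 CPM in PBS and 33.5 to 43.7 CPM in IL-10/Fc. Both overlapped between groups. Dnaja4 was lower in every treated library (1.24 to 4.08 CPM, against 4.31 CPM in both controls). It shares 1581 of 3589 exon bases with Wdr61 on the other strand, and the protocol does not mark strand. Hspa14 was listed as a pair of overlapping loci (ENSMUSG00000109865 and ENSMUSG00000051396) that share 321 exon bases; the first, the other constitutive member with a positive log2 fold change (0.17), read 76.6 and 89.5 CPM in PBS and 78.2 to 115 CPM in IL-10/Fc.

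Ratios taken within a library need no scaling between libraries, and those of partner chaperones were computed per exon length. These pairs were chosen after the values were seen, so the ratios are given with no test; with 4 against 2 libraries an exact permutation test cannot go below 0.133. Hsp90aa1 over Hsp90ab1 was 0.318 and 0.458 in the controls and 0.551, 0.570, 0.570 and 0.613 in the treated libraries. The inducible share of cytosolic HSP90 transcripts was higher in all treated libraries. Dnajb1 over Hspa8 was 0.335 and 0.322 in the controls and 0.258, 0.272, 0.249 and 0.283 in the treated libraries, lower in every treated library. Hsph1 over Hspa4 was 0.419 and 0.178 against 0.692, 0.418, 0.416 and 0.569, and here the groups overlapped.

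**Figure D5:**
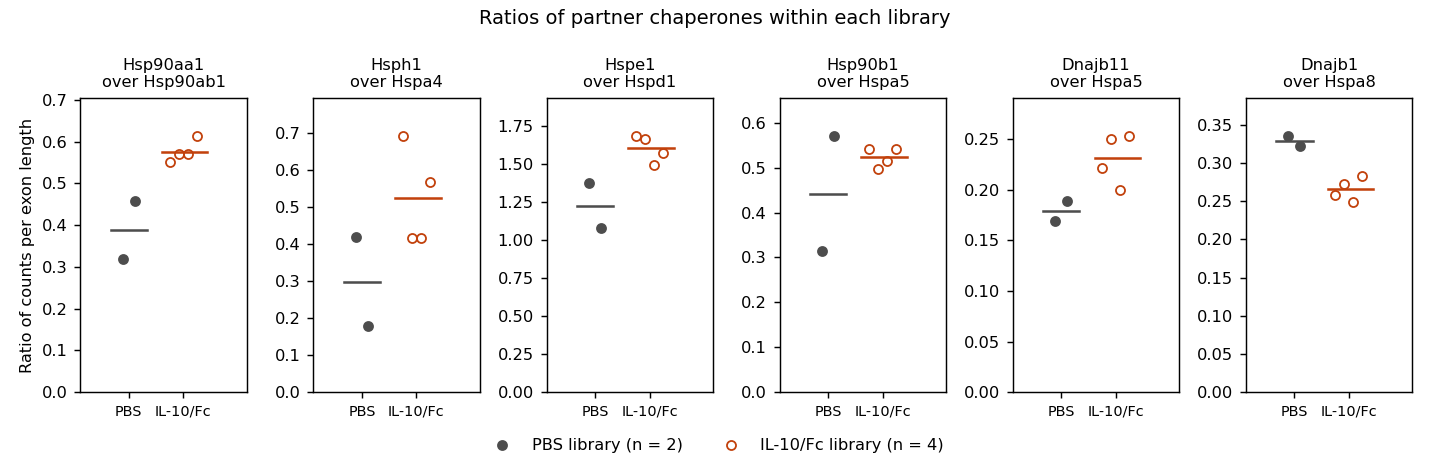
Ratio of counts per exon length between 6 pairs of partner chaperones (vertical axes from 0), 1 point per library in PBS and IL-10/Fc (horizontal axis), with bars at group means. Groups do not overlap for Hsp90aa1 over Hsp90ab1, Hspe1 over Hspd1, Dnajb11 over Hspa5 and Dnajb1 over Hspa8, and overlap for Hsph1 over Hspa4 and Hsp90b1 over Hspa5.

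Among the 13 ER members, 9 had a positive and 4 a negative log2 fold change, with a median of 0.14. None passed an unadjusted p of 0.05, and 4 were higher in every treated library (background 12.1%), namely Dnajb11, Dnajc1, Dnajc10 and Dnajc3. In 9 of the 13, PBS 1 was below PBS 2. Without PBS 2 the median was 0.39. With library size alone it was -0.03, while the median of all genes went from -0.01 to -0.18. The groups of all 4 then overlapped, and the values of Hspa5, Hspa13 and Dnajc3 turned negative.

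Promoters of ER members were searched for the ER stress element, written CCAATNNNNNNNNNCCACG and read on both strands. It occurred in 3 of 11 (27.3%), those of Hspa5, Hsp90b1 and Dnajc3, against 39 of all 32851 promoters (0.119%), and in no promoter of the other roles. The Hspa5 promoter (chr2:34771840-34772139, plus, 5′ to 3′) is shown as the example, with the element in capitals 65 bases before the start.
Hspa5: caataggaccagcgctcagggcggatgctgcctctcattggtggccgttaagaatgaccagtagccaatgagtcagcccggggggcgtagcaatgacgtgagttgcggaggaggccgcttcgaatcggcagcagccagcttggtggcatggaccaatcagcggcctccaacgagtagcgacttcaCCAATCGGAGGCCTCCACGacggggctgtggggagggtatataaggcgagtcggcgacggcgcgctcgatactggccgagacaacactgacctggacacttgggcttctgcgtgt
Hspa5, Hsp90b1 and Dnajc3 were not the ER members with the largest log2 fold changes.

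Hspa5 encodes BiP, the HSP70 of the ER (chr2:34771970-34777547, plus). Its level was 852 and 1207 CPM in PBS and 1091, 1010, 1247 and 1015 CPM in IL-10/Fc, with overlap between groups. The log2 fold change of 0.08 (SE 0.16, adjusted p = 0.902, edgeR) became -0.15 without PBS 1. Hsp90b1 (GRP94), the HSP90 of the ER, was at 256 and 656 CPM in PBS and at 562, 480, 614 and 524 CPM in IL-10/Fc. All 4 treated libraries lay between the controls, which differed by more than any treated library did from another. Its log2 fold change was 0.26 (SE 0.35, adjusted p = 0.841, edgeR), -0.27 without PBS 1 and 1.09 without PBS 2. Hspa13, a small HSP70 relative of microsomes, read 14.6 and 24.6 CPM in PBS and 22.9, 20.2, 24.3 and 13.5 CPM in IL-10/Fc, with no separation (log2 fold change 0.05, and -0.28 without PBS 1, -0.02 without IL-10/Fc 1 and -0.05 without IL-10/Fc 3).

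Several ER J proteins that serve BiP were higher in each treated library. Dnajb11 (ERdj3), which binds clients together with BiP, was at 110 and 175 CPM in PBS and at 185, 193, 190 and 196 CPM in IL-10/Fc. The treated libraries were tightly grouped above both controls (143 ± 45.7 CPM, SD, n = 2, and 191 ± 4.72 CPM, SD, n = 4). Its log2 fold change was 0.42 (SE 0.18, adjusted p = 0.413, edgeR), 0.13 without PBS 1 and 0.80 without PBS 2. Dnajc10 (ERdj5), a disulfide reductase, was at 33.6 and 42.2 CPM in PBS and at 49.9, 61, 50.9 and 42.6 CPM in IL-10/Fc, where IL-10/Fc 4 barely cleared PBS 2 (log2 fold change 0.43, SE 0.19, adjusted p = 0.422, edgeR). Dnajc1 (ERdj1), which sits at the ER membrane near ribosomes, was at 46.7 and 46.8 CPM in PBS and at 70.5, 52.5, 66.6 and 54.5 CPM in IL-10/Fc, again higher in each (log2 fold change 0.39, SE 0.17, adjusted p = 0.411, edgeR).

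Dnajb9 (ERdj4), a J protein of ER-associated degradation, read 83.9 and 121 CPM in PBS and 175, 118, 120 and 134 CPM in IL-10/Fc. PBS 2 lay among the treated values, and the log2 fold change was 0.42 (SE 0.22, adjusted p = 0.505, edgeR). Dnajc3 (p58IPK), an inhibitor of stress kinases, was at 210 and 229 CPM in PBS and at 243, 244, 233 and 248 CPM in IL-10/Fc. It was higher in each treated library by a small step, and the log2 fold change of 0.14 (SE 0.09, adjusted p = 0.573, edgeR) became -0.03 with library size alone. The ratio of Dnajb11 to Hspa5 per exon length was 0.169 and 0.189 in the controls and 0.222, 0.250, 0.200 and 0.253 in the treated libraries, higher in each. That of Hsp90b1 to Hspa5 was 0.315 and 0.570 against 0.541, 0.498, 0.516 and 0.541, and PBS 1 alone stood apart.

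The last 5 ER members, Dnajb12, Dnajb14, Dnajc16, Dnajc18 and Dnajc25, overlapped between groups. Dnajc18 was the most counted of them, at 37.5 and 27.4 CPM in PBS and 26.7 to 34.6 CPM in IL-10/Fc. The 4 others had means of at most 6.95 CPM in either group.

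The 8 mitochondrial members were balanced, with 4 positive and 4 negative log2 fold changes, a median of -0.04 and none at an unadjusted p under 0.05. Hspd1 (HSP60) and Hspe1 (HSP10) are transcribed head to head from 1 shared promoter on chromosome 1 (55077835-55088243, minus, and 55088132-55091307, plus). The window of Hspe1 (chr1:55087898-55088197, plus, 5′ to 3′) is shown because the pair shares it. Capitals mark a run of 3 overlapping heat shock elements, which the Hspd1 window holds on the other strand.
Hspe1: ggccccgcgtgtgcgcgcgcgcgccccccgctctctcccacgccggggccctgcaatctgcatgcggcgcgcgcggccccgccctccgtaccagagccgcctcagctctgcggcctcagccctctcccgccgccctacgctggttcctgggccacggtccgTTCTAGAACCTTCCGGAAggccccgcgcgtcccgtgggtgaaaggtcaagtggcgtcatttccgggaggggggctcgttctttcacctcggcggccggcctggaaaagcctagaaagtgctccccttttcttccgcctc
Hspd1 was at 142 and 224 CPM in PBS and at 153, 164, 160 and 158 CPM in IL-10/Fc, with all treated libraries between the controls. Hspe1 was at 109 and 135 CPM in PBS and at 143, 152, 133 and 138 CPM in IL-10/Fc, where IL-10/Fc 3 lay just under PBS 2. Their log2 fold changes were -0.21 (SE 0.18, adjusted p = 0.711) and 0.21 (SE 0.13, adjusted p = 0.547) in edgeR, and the Hspd1 value became 0.16 without PBS 2. Per exon length, Hspe1 over Hspd1 was 1.37 and 1.08 in the controls and 1.68, 1.66, 1.49 and 1.57 in the treated libraries. The lid transcript was thus more abundant relative to the barrel transcript in every treated library, although both genes share 112 exon bases on opposite strands.

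Hspa9 (mortalin), the matrix HSP70 that pulls in imported proteins, read 80.6 and 165 CPM in PBS and 84.2, 102, 82.3 and 77.8 CPM in IL-10/Fc. PBS 2 stood far above the other 5 libraries. The log2 fold change was -0.51 (SE 0.28, adjusted p = 0.516, edgeR) and 0.10 without PBS 2. Dnaja3 (Tid1), its J partner, was at 15.4 and 7.03 CPM in PBS and at 9.72, 9.80, 10.1 and 8.75 CPM in IL-10/Fc, between the controls, with a log2 fold change of -0.22 that became 0.45 without PBS 1.

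Dnajc15 (MCJ), known as a brake on respiratory complex I in CD8 T cells, was the most counted mitochondrial member. It measured 688 and 346 CPM in PBS and 779, 583, 479 and 632 CPM in IL-10/Fc. PBS 2 was the lowest library and PBS 1 lay among the treated ones. The log2 fold change was 0.26 (SE 0.31, adjusted p = 0.807, edgeR), and -0.15 without PBS 2. Dnajc19, of the inner membrane import motor, read 122 and 94.2 CPM in PBS and 111 to 134 CPM in IL-10/Fc, with overlap.

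Dnajc11, a protein linked to cristae organisation, was at 8.63 and 14.3 CPM in PBS and at 11.8, 17.3, 15.6 and 18.8 CPM in IL-10/Fc, with overlap (log2 fold change 0.47, SE 0.31, adjusted p = 0.596, edgeR). Dnajc30, a J protein that associates with respiratory complexes, was at 19.2 and 18.5 CPM in PBS and at 15.7, 16.3, 14.2 and 16.6 CPM in IL-10/Fc. Every treated library was slightly lower for Dnajc30, but 436 of its 1661 exon bases overlap Bud23 (listed as Wbscr22) on the other strand, which read 52.4 to 75.7 CPM over the 6 libraries.

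Among the 11 DnaJC members with specialised tasks, 8 had a positive and 3 a negative log2 fold change (median 0.15), and 1 was higher at an unadjusted p under 0.05 (background 7.2%). Without PBS 2 the median was 0.47, and without PBS 1 it was -0.15. The 1 member was Dnajc13 (RME-8), which works in endosomal sorting (chr9:104151282-104262930, minus). It was at 11.2 and 14.3 CPM in PBS and at 24.5, 25.0, 23.2 and 16.2 CPM in IL-10/Fc. All treated libraries were higher, and IL-10/Fc 4 was nearest to the controls. Its log2 fold change was 0.80 (SE 0.26, unadjusted p = 0.0197), with an adjusted p of 0.308 in edgeR and 0.0952 in DESeq2.

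Dnajc9, a histone chaperone of replicating cells, read 161 and 233 CPM in PBS and 178, 239, 273 and 257 CPM in IL-10/Fc, with overlap (log2 fold change 0.27, SE 0.22, adjusted p = 0.697, edgeR). Dnajc2, which binds the ribosome at the nascent chain, was at 76.4 and 85.5 CPM in PBS and at 76.9, 84.7, 83.9 and 95.9 CPM in IL-10/Fc. Dnajc24, of the diphthamide pathway, was at 31.1 and 36.2 CPM against 18.6, 34.5, 32.3 and 24.1 CPM. For Dnajc2 and Dnajc24 the groups overlapped. Dnajc5, the vesicle protein CSP-alpha, read 51.6 and 45.5 CPM against 62.8, 50.8, 51.7 and 51.0 CPM, where IL-10/Fc 1 stood above the rest. Library size alone turned the small positive values of Dnajc2 and Dnajc5 to -0.09 and -0.02. Dnajc8, of the spliceosome, was at 165 and 255 CPM in PBS and at 217 to 241 CPM in IL-10/Fc, inside the range of the controls. Dnajc7, a J protein of HSP70 and HSP90 complexes, was at 48.4 and 64.6 CPM in PBS and at 46.1 to 65.5 CPM in IL-10/Fc. Dnajc21, of ribosome maturation, was at 9.88 and 14.6 CPM against 7.93 to 18.7 CPM, and Dnajc17 at 5.91 and 10.5 CPM against 8.11 to 10.6 CPM. Dnajc14 read 2.14 and 5.72 CPM against 2.28 to 7.07 CPM, and Dnajc27 read 3.29 and 3.17 CPM against 0 to 3.35 CPM. None of these 5 separated the groups, except that Dnajc27 was lower in every treated library with library size alone. With that scaling Dnaja2, Dnajb1, Dnajb14, Dnajc24, Dnajc25 and Hspbp1 were also lower in each.

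In the group of other members, Dnajc12, a cochaperone of aromatic amino acid hydroxylases (chr10:63382443-63408840, plus), had the smallest p. Its level was 43.6 and 62.2 CPM in PBS and 27.4, 17.2, 35.1 and 23.4 CPM in IL-10/Fc, lower in every treated library. The log2 fold change was -1.04 (SE 0.30), with an adjusted p of 0.272 in edgeR and 0.0407 in DESeq2, and it ranged from -1.27 to -0.76 over the alternatives. Hspb6, a small heat shock protein of muscle, was at 9.10 and 2.74 CPM against 6.03, 1.92, 1.37 and 2.39 CPM, with overlap, and its log2 fold change of -1.01 became 0.09 without PBS 1. Dnajb13, of sperm flagella, read 26.2 and 37.9 CPM against 46.9, 51.1, 27.4 and 25.3 CPM, and 305 of its 2732 exon bases overlap Ucp2, which was at 950 to 1224 CPM. Without PBS 1 the log2 fold change of Dnajb13 went from 0.23 to -0.01.

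The other locus listed as Hspa14 (ENSMUSG00000051396) is named Gm45902 in GENCODE. It was at 4.99 and 4.8 CPM in PBS and at 7.91, 3.24, 2.02 and 0.656 CPM in IL-10/Fc, with overlap. Hspb11, of the ciliary transport complex, and Dnajc4 had means of 17.5 to 19.6 CPM in both groups and log2 fold changes of 0.14 and 0.07. Dnajb3, Dnajc28 and Hspbap1 had means under 2 CPM. Dnajb7 was the 1 untested member, with 57 and 7 counts in IL-10/Fc 1 and 3 and 0 in the other 4 libraries.

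Partners outside the name rule were read from lists by function. The 8 subunits of TRiC/CCT, the cytosolic chaperonin for actin and tubulin, all had negative log2 fold changes (median -0.19), 2 of them at an unadjusted p under 0.05 (background 5.52% lower). Cct4 was at 403 and 435 CPM in PBS and at 303, 333, 350 and 318 CPM in IL-10/Fc (log2 fold change -0.36, SE 0.10, adjusted p = 0.242 in edgeR and 0.0388 in DESeq2), and Cct5 at 633 and 659 CPM against 426 to 582 CPM. Of 23 heat shock factors and cochaperones found among 24, 7 had positive and 16 negative values (median -0.11), with 2 lower at an unadjusted p under 0.05 (the same background). Those were Hsf1, the heat shock factor itself, at 2.96 and 6.05 CPM against 1.07 to 2.31 CPM, and Fkbp4, a cochaperone of HSP90, at 103 and 135 CPM against 85.2 to 101 CPM.

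Among 15 ER folding partners, 12 had a positive and 3 a negative log2 fold change (median 0.28), and 1 was higher at an unadjusted p under 0.05 (background 7.2%). That gene was Manf, a secreted ER stress protein, at 179 and 252 CPM in PBS and 396, 284, 378 and 380 CPM in IL-10/Fc (log2 fold change 0.74, SE 0.20, adjusted p = 0.253 in edgeR and 0.0145 in DESeq2). Atf6, a sensor of the unfolded protein response, was at 29.1 and 18.8 CPM against 30.8 to 38.9 CPM. Of 11 mitochondrial partners 8 were negative (median -0.50) and 5 were lower at an unadjusted p under 0.05 (background 5.52%). Clpb, a matrix disaggregase, was at 37.0 and 35.7 CPM in PBS and 8.34, 12.8, 19.8 and 10.1 CPM in IL-10/Fc (log2 fold change -1.51, adjusted p = 0.207 in edgeR and 0.00455 in DESeq2). Timm44, of the import motor that recruits Hspa9, was at 80.5 and 66.8 CPM against 47.6 to 53.0 CPM (adjusted p = 0.206 in edgeR and 0.0122 in DESeq2).

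Immediate early genes, which can be switched on while tissue is dissociated, summed to 2524 and 1897 CPM in PBS and to 1416, 1800, 2286 and 1592 CPM in IL-10/Fc. Of 18, 8 had positive and 10 negative log2 fold changes. At an unadjusted p under 0.05 (edgeR), 2 were higher (background 7.2%) and 3 lower (background 5.52%). The higher genes were Jun, at 3.23 and 1.73 CPM against 4.26 to 8.09 CPM, and Ier3, at 28.3 and 5.36 CPM against 31.1 to 92.4 CPM. The lower genes were Dusp1, Ier2 and Nr4a1. Dusp1 was at 618 and 500 CPM in PBS and at 154, 188, 250 and 161 CPM in IL-10/Fc (log2 fold change -1.57, adjusted p = 0.148 in edgeR and 6.85e-09 in DESeq2), and Ier2 at 245 and 220 CPM against 99.8 to 166 CPM. PBS 1 had the highest immediate early sum and the highest levels of Hspa1a, Hspa1b, Dnajb1, Dnajb4 and Hspb1. Hsp90aa1 and Dnaja1 were at their lowest in PBS 1, and Hsph1 and Hspa4l lay within the range of the other libraries. IL-10/Fc 3 had the next highest immediate early sum and the lowest Hspa1a plus Hspa1b level. The part of immediate early induction in the values of inducible members was not tested.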

How the data were processed

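The authors deposited whole-number read counts per gene for each of the 6 Smart-Seq2 libraries (full-length, no molecular identifiers, strand not marked). The submitters' processing notes name TopHat2 2.1.1 with Bowtie2 2.2.9, Trimmomatic, DESeq2, Cuffdiff and Cufflinks 2.2.1, on GRCm38 (mm10). How reads were assigned to genes was not given in the sources used here. Only the 6 raw count columns were used. In column headers the PBS libraries carry the numbers 2 and 3, in titles 1 and 2; the titles were followed. Floors cover counting error only.

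Counts were filtered (filterByExpr, 15477 genes kept), scaled by TMM (factors 1.06 to 1.1 in PBS, 0.95 to 0.983 in IL-10/Fc) and tested two-sided with edgeR 4.0.16 (robust glmQLFit, glmQLFTest; R 4.3.3), with Benjamini-Hochberg adjustment at 0.05. Alternatives used DESeq2 1.42.0, limma 3.58.1 (voom), other scalings and filters, a replicate block, and each library left out. Exon lengths came from GENCODE on GRCm38 and count every base in any annotated exon of a gene, whether or not that exon was used in these cells. That annotation held 15865 of the 15898 listed gene identifiers, of which 13614 (85.8%) had the deposited coordinates. Promoters came from RefSeq (GRCm38.p6).

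Members and lists were chosen with earlier results of these data known. Named genes were fixed chaperones, the 4 members of each role with the smallest unadjusted p and the 2 partners of each list with the smallest p. Further genes outside this rule were named after their values were seen. They include Hspa4l, Dnaja2, Dnaja4, Hspbp1, Dnajc7, Dnajc8, Dnajc18 and Dnajc19. They also include the immediate early genes Jun, Ier3 and Nr4a1 and the markers Cd68, Ms4a7, Zbtb46 and Pecam1. NK cell markers (3 of 5 listed) summed to 57.1 and 5.49 CPM in PBS against 14.4 to 23.6 CPM, and neutrophil markers (2 of 3) to at most 2.68 CPM. Of 2 markers of CD4 and regulatory T cells and 4 of red blood cells, 0 were among the genes used here.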

Additional observations from a re-analysis of the deposited data

Results flagged for a closer look

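In 62 sets of 4 IL-10/Fc values examined, 4 had 1 library far from the other 3 by Dixon's ratio of gap to range (above the 95% critical value), and chance gives about 1 in 20. Hsph1 was at 62.9 CPM in IL-10/Fc 1 against 47.2 to 49.5 CPM in the others (ratio 0.854). Hspa8 was at 1339 CPM in the same library against 1066 to 1094 CPM (ratio 0.897). Dnajc5 was at 62.8 CPM there against 50.8 to 51.7 CPM (ratio 0.925). Manf, a partner gene, was at 284 CPM in IL-10/Fc 2 against 378 to 396 CPM (ratio 0.839).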

How the results depend on the processing

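No member was called by edgeR or limma-voom at an adjusted p of 0.05 under any alternative that kept both controls. DESeq2 called 3 lower and 0 higher (1.58% and 3.46% of all genes), with 4 higher at an unadjusted p under 0.05 (9.63% of all genes). DESeq2 also called Cct4, Manf, Timm44, Clpb, Dusp1 and Ier2. With library size alone, 1 member was higher and 9 lower at an unadjusted p under 0.05 (edgeR, 4.21% and 10.6% of all genes). Groups without overlap numbered 1 higher and 15 lower (7.24% and 19.8% of all genes). Median log2 fold changes were -0.10 for all members, -0.48 for constitutive, -0.03 for ER and -0.21 for mitochondrial members, against -0.18 over all genes. With the same scaling Hspa5 was at -0.08, Hspa13 at -0.11, Dnajc3 at -0.03, Dnajc2 at -0.09 and Dnajc5 at -0.02. Keeping only genes of 20 CPM in at least 2 libraries left 38 members, with 1 higher at an unadjusted p under 0.05 (10.2% of all genes). Of the members kept, 3 were lower without overlap (15.7% of all genes). Medians were 0.25 (inducible), -0.07 (constitutive) and 0.11 (mitochondrial). Fewer genes were tested, and Dusp1 was called. Without the robust option 1 member was higher at an unadjusted p under 0.05 (7.33% of all genes). The cause of the other shifts was not tested.

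Deviations of same-numbered PBS and IL-10/Fc libraries from their group means correlated at 0.062 and 0.015. The deviations of the 2 controls mirror each other by construction, and their numbers differ between headers and titles. These values thus cannot show whether the numbers pair the samples. With the replicate block, 1 member was higher and 3 lower at an unadjusted p under 0.05 (4.04% and 3.76% of all genes). The inducible median was then -0.02, and Hspa8 (0.03) and Hspa14 of ENSMUSG00000051396 (0.05) changed sign.

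Leaving out each library in turn, members at an unadjusted p under 0.05 numbered 1 to 7 higher and 3 to 7 lower, and groups without overlap 8 to 21 higher and 8 to 18 lower, with the most when a control was left out (14 higher and 18 lower without PBS 1, against 23% and 23.9% of all genes, and 21 and 16 without PBS 2, against 25.2% and 26.9%). With 1 treated library left out, 1 to 2 members were higher and 3 to 7 lower at an unadjusted p under 0.05 (edgeR). All genes gave 5.5% to 6.52% and 4.36% to 5.22%. Groups without overlap then numbered 8 to 11 higher and 8 to 12 lower, against 14.5% to 15.9% and 14.3% to 15.3% of all genes. With 1 control left, p-value counts rest on a spread taken from the treated group and are no result. Over all these fits, medians ranged from -0.54 to 0.12 (inducible), -0.33 to -0.03 (constitutive) and 0.13 to 0.39 (ER). They ranged from -0.06 to 0.10 (mitochondrial) and from -0.15 to 0.47 (specialised). Log2 fold changes that changed sign ranged from -1.90 to 0.15 for Hspa1b, -0.20 to 0.13 for Hspa8, -0.15 to 0.36 for Hspa5, -0.27 to 1.09 for Hsp90b1, -0.28 to 0.47 for Hspa13, -0.50 to 0.16 for Hspd1, -0.94 to 0.10 for Hspa9, -0.68 to 0.45 for Dnaja3, -0.15 to 0.84 for Dnajc15, -1.64 to 0.09 for Hspb6 and -0.01 to 0.52 for Dnajb13. A lone control is assumed to vary like the treated group. Errors were wide for members under 5 CPM, and the part of depth in this was not tested.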
